A study of Rattus norvegicus with 6 samples.

Results

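The genes described here act on DNA damage of the kind that methylating carcinogens leave. They are 8 rat genes picked by name for their roles in direct reversal (Mgmt), base excision repair (Mpg, Apex1, Polb, Xrcc1 and Parp1) and mismatch repair (Msh6 and Pms2). A probe was assigned to a gene through the accession printed for it on the array, and 7 of the 8 genes had a probe, 1 each, among the 23997 probes and 12418 named genes of the deposited table. Msh6 had no probe matched in this way and was not analysed here. Expression was measured in colon tissue from 3 S.LEW congenic rats, called C1 to C3 here, and from 3 S rats, called S1 to S3, each on its own single-color Agilent array. The labels call the colon tumor-induced, and the study counted more colon tumors in S.LEW than in S. Whether the RNA included tumor is not stated, and the part of tumor tissue in the values was not tested. S is the Dahl salt-sensitive rat (SS/Jr), which is inbred and becomes hypertensive, and S.LEW(10)x12x2x3x5 carries a short piece of Lewis chromosome 10 on the S background. All 6 rats were males on a low-salt diet that received azoxymethane (AOM) by intraperitoneal injection, 15 mg per kg once a week in 2 injections from 6 weeks of age, and each cage housed an S rat with a congenic rat. The colon was taken at 30 weeks of age. No rat without AOM is among the samples, so the values compare the strains long after the carcinogen and do not measure a response to it. Of the 8 genes only Mpg is on chromosome 10, and in GRCr8 773 protein-coding genes lie between it and Rffl, the gene by which the study places the congenic segment.

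AOM is converted in the body to a methylating agent that adds methyl groups to the bases of DNA. Methyl groups at the O6 position of guanine are taken off in a single step by the Mgmt protein, which is used up in doing so, and this lesion is the one most closely tied to mutation because methylated guanine pairs with thymine. Methylated purines are instead cut out by the glycosylase Mpg, after which Apex1 nicks the strand at the empty sugar, Polb fills the gap, Xrcc1 holds the enzymes together with a ligase, and Parp1 senses the open nick. Msh6 recognizes a mispaired base as part of a dimer and Pms2 cuts the strand in the next step, and cells that keep mismatch repair respond to unrepaired methylguanine with arrest or death.

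The start regions of 4 of the genes are shown as background, and no link between them and the array values was tested. They are the 250 bases before the annotated start in RefSeq, from the reference assembly GRCr8, which is of neither strain studied, and are written 5′ to 3′ on the strand of the gene with every GGGCGG or its reverse complement CCGCCC in capitals. Mgmt lies on the plus strand at chr1:201140582-201140831, Apex1 on the plus strand at chr15:26617976-26618225, Pms2 on the minus strand at chr12:15814721-15814970 and Mpg on the minus strand at chr10:15906925-15907174.
Mgmt: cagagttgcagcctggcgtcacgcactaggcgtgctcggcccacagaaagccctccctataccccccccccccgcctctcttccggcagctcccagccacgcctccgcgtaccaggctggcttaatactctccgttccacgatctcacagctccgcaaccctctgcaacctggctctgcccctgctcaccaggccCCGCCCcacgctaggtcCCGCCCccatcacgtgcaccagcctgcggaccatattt
Apex1: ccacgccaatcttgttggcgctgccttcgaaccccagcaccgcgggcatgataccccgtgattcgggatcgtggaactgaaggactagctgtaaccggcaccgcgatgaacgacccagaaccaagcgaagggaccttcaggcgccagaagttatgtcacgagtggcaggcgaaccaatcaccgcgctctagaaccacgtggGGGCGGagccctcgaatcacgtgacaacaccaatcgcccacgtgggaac
Pms2: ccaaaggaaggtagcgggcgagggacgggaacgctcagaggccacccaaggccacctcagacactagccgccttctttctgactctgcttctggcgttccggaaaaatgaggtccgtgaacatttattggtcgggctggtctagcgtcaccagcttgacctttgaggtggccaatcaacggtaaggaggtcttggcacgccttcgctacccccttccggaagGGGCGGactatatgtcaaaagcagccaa
Mpg: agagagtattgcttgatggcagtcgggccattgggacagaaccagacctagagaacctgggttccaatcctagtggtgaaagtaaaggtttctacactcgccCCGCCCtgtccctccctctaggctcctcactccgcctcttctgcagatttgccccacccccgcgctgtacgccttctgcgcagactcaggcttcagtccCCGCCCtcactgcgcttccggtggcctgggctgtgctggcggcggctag
Of the 8 genes, 7 had an entry in the promoter table (Polb was the exception). All but Xrcc1, that is 6 of those 7, held GGGCGG on either strand, against 30.5% of the 33469 promoters of the table. The table was not limited to genes measured here. CCAAT on either strand was found in 4 of the 7 and in 34.0% of all promoters, and TATAAA in 0 of the 7 and in 12.9% of all. The 7 start regions held 13 to 30 CG dinucleotides, against a median of 5 over the table. Mgmt, whose strains were apart, and Mpg, whose strains were not, both had GGGCGG in 2 places.

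The array of S2 stood apart from those of the other S rats. Its Pearson correlation across probes was 0.967 to 0.976 with the 3 congenic arrays, above the 0.900 and 0.937 it reached with S1 and S3, which correlated with each other at 0.980. The arrays also differed in brightness before normalization, with a median spot intensity of 594 in S1 and 445 in S3 against 214 to 291 in the others. Results below are therefore also given without S2 and with S2 as the only S rat. The 7 epithelium markers tested were well above background on all 6 arrays, as tissue labelled colon should have them, and so were the 6 smooth muscle markers. In RNA from mixed tissue, fewer cells of a type and less RNA per cell cannot be told apart, and this holds for every gene described. With 3 rats per strain, an exact two-sided permutation test cannot give a p below 0.10.

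Mgmt was lower in the S.LEW congenic strain than in S at an unadjusted p under 0.05, though not after adjustment. It was also the only gene of the 7 whose strains did not overlap. Its normalized log2 signal stood at 8.24 in C1, at 8.55 in C2 and at 8.26 in C3, while S1 read 9.77, S2 8.65 and S3 9.53. The S rats S1 and S3 were far above every congenic rat, while S2 stood only 0.09 above C2 on the log2 scale. Congenic rats averaged 8.35 ± 0.17 (SD, n = 3) and S rats 9.31 ± 0.59 (SD, n = 3) in log2 signal, so Mgmt signal was 1.95-fold higher in S (95% interval from 1.14 to 3.33). The log2 fold change of S.LEW against S was -0.96 with a standard error (SE) of 0.32 (limma unadjusted p = 0.0223, adjusted p = 0.338), and the exact permutation p was 0.1, the smallest this design can give. The unadjusted call was lost under the methods' t-test (p = 0.0538, with the exact permutation test unable to reach 0.05), within a scan (limma p = 0.0807), and when C1, C3, S1 or S3 was left out, where the log2 fold change was -0.73 to -0.91. The adjusted p ranged from 0.00596 to 0.865 over the other settings tried.

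Read against the whole array, this is 1 gene of 7 at an unadjusted p under 0.05, where limma called 13.0% of all 23997 probes with 4.4% lower and 8.58% higher in S.LEW. Likewise 1 gene of 7 had strains apart, where 17.7% of all probes did and 5.33% did with S.LEW lower. The share of the repair genes is near that background, and neither for them nor for any other probe did the adjusted p fall under 0.05 (limma gave 0 such probes and 3115 with an unadjusted p under 0.05, and the methods' t-test gave 0 and 2594). None of the 7 genes was called at the cut-offs of the study, which ask for a 2-fold change beside an unadjusted p under 0.05. With limma 5.58% of all probes passed them, and with the methods' t-test 2.89% did.

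The size of the Mgmt difference rested on S1 and S3. S1 was 1.41 and S3 1.17 above the mean of the congenic rats on the log2 scale, and S2 was 0.29 above it. Without S2 the log2 fold change was -1.29 with an SE of 0.18 (limma adjusted p = 0.0125), in a fit where 2 of the 7 genes, Mgmt and Pms2, had an adjusted p under 0.05, as did 23.1% of all probes and 10.6% with S.LEW lower. Weights that limma estimated for each array, which gave S2 little weight, put 4 of the 7 genes and 35.6% of all probes under that limit. With S2 as the only S rat, the log2 fold change was -0.29 and the unadjusted limma p was 0.273, in a fit that assumes S2 to vary as the congenic rats do. The scanner files place C1 with the 3 S rats in 1 scan and C2 with C3 in the other, and within the shared scan, where C1 alone stands for the congenic strain, the log2 fold change was -1.07 with an SE of 0.50 (limma adjusted p = 0.818). The other 6 genes lay between -0.59, for Pms2, and 0.43, for Mpg, in that scan.

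**Figure D1:**
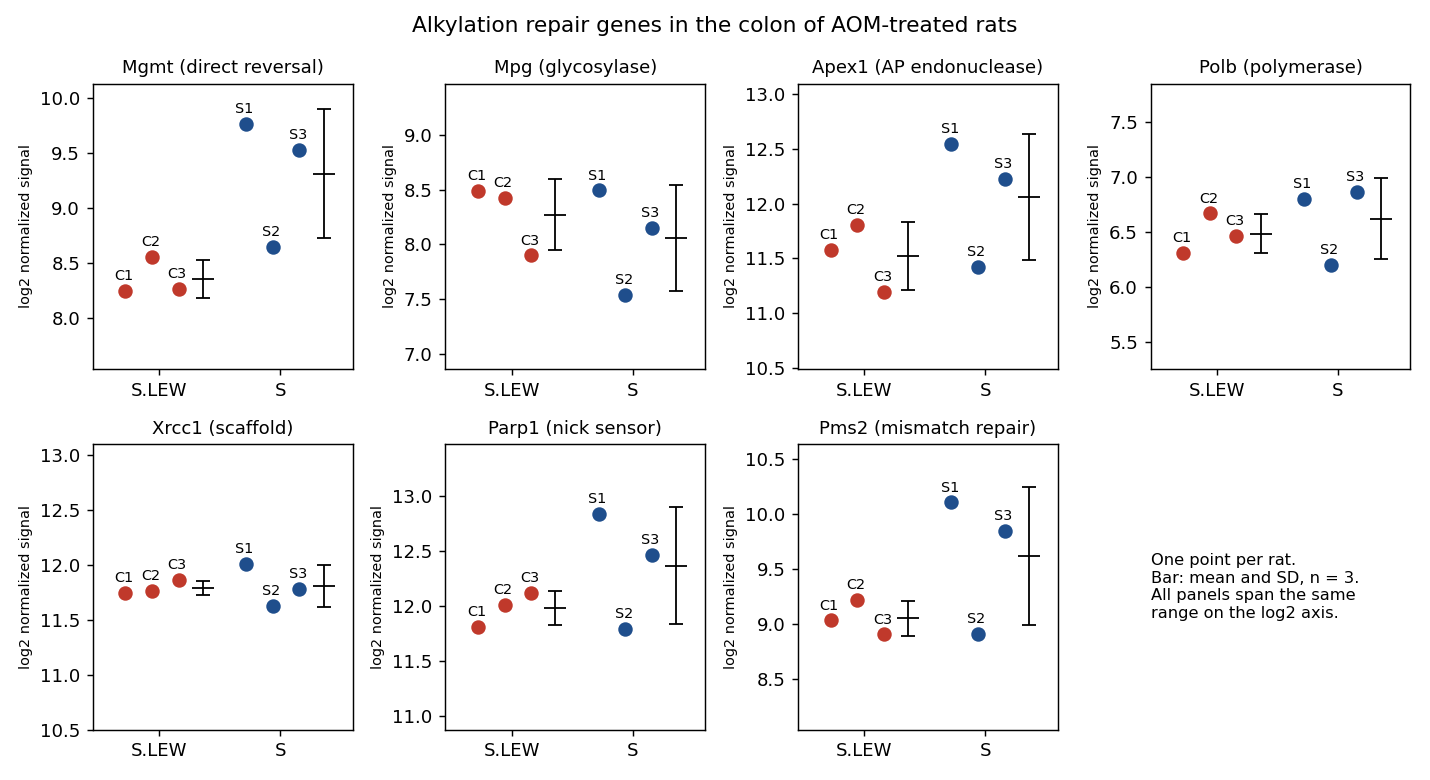
Normalized log2 signal of the 7 measured repair genes on each array, with 1 point per rat (red, S.LEW congenic; blue, S) and a bar for the mean and SD of 3 rats; all panels span the same range of the log2 axis. Mgmt is the only gene whose 3 blue points all lie above the red ones, and S2 is the lowest blue point in all 7 panels.

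Mpg, the glycosylase that starts the excision of methylated purines, did not show the Mgmt pattern. Its log2 signal stood at 8.49 in C1, at 8.43 in C2 and at 7.90 in C3, with S1 at 8.49, S2 at 7.54 and S3 at 8.15. The strains overlapped over most of their range, with S2 below every congenic rat. The log2 fold change was 0.21 with an SE of 0.31 (95% interval from -0.53 to 0.95, limma adjusted p = 0.743). Without S2 the log2 fold change was -0.05, and with S2 as the only S rat it was 0.74 (95% interval from -0.12 to 1.59).

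Apex1, the endonuclease that cuts at the site the glycosylase leaves, had log2 signals of 11.57 in C1, 11.80 in C2 and 11.20 in C3, while S1 read 12.54, S2 11.42 and S3 12.22. S1 and S3 lay above every congenic rat, and S2 lay inside the congenic range. The log2 fold change was -0.54 with an SE of 0.34 (limma adjusted p = 0.489). Without S2 it was -0.86 with an adjusted limma p of 0.0533, and with S2 as the only S rat it was 0.10, so its sign depended on which S rats were read.

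The gap-filling polymerase and the scaffold of base excision repair had small strain differences over all 6 rats. Polb, the dimmest of the 7 probes, had a log2 signal of 6.31 in C1, 6.67 in C2 and 6.46 in C3, while S1 read 6.80, S2 6.20 and S3 6.87. S1 and S3 were just above the highest congenic rat and S2 just below the lowest. The log2 fold change of Polb was -0.14 with an SE of 0.24 (95% interval from -0.72 to 0.45, limma adjusted p = 0.791). It was -0.35 without S2 and -0.0145 without S3, and with S2 as the only S rat it was 0.29. Xrcc1 varied least of the 7 genes over the 6 arrays, with 11.74, 11.77 and 11.87 in C1, C2 and C3 and 12.01, 11.63 and 11.78 in S1, S2 and S3. Its log2 fold change was -0.01 with an SE of 0.18 (95% interval from -0.45 to 0.42, limma adjusted p = 0.973), so that a strain difference in either direction of more than 1.36-fold lies outside the interval. The value for Xrcc1 was -0.10 without S2 and 0.16 with S2 as the only S rat.

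Parp1, the sensor of open strands, was read by 10 spots of a single probe. Its log2 signal stood at 11.81 in C1, at 12.01 in C2 and at 12.12 in C3, while S1 read 12.84, S2 11.79 and S3 12.47. S1 and S3 were again above every congenic rat, and S2 was below all of them. Between the strains the log2 fold change was -0.39 with an SE of 0.30 (limma adjusted p = 0.548). It was -0.67 without S2, with an adjusted limma p of 0.0571, and 0.19 with S2 alone.

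Pms2, which cuts the strand in mismatch repair, had the widest spread among the S rats of the 7 genes, with an SD of 0.63. Its log2 signal stood at 9.03 in C1, at 9.21 in C2 and at 8.90 in C3, while S1 read 10.11, S2 8.91 and S3 9.85. S2 fell inside the congenic range, just above C3, and the other S rats were above it. For Pms2 the log2 fold change was -0.57 with an SE of 0.33 (limma adjusted p = 0.468). Without S2 it was -0.93 with an SE of 0.18 (limma adjusted p = 0.0239), and with S2 as the only S rat it was 0.14.

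**Figure D2:**
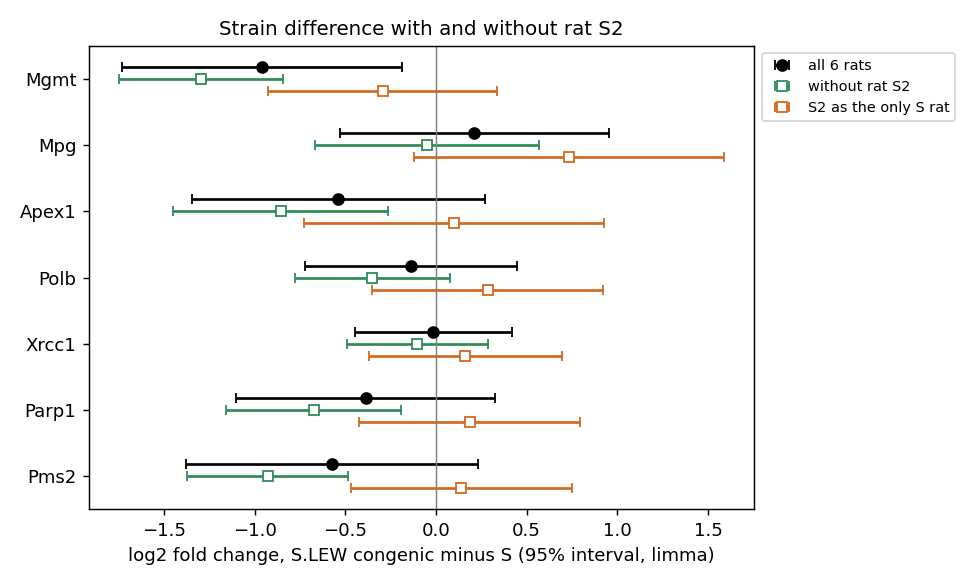
Log2 fold change of S.LEW against S for the 7 repair genes, with 95% intervals from limma, over all 6 rats, without S2, and with S2 as the only S rat. Over all rats only the Mgmt interval, from -1.73 to -0.19, leaves out 0, and for all 6 other genes the values without S2 and with S2 alone lie on opposite sides of 0.

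As a set, the repair genes had a median log2 fold change of -0.39 between the strains, where the median of all probes was 0.01, and 6 of the 7 were below 0, as were 48.7% of all probes. The spread among the S rats was the more regular feature. Among the S rats the lowest was S2 for 7 of the 7 genes and for 40.0% of all probes, and the order S1, S3, S2 from high to low held for 6 of the 7 and for 30.1% of probes. S1 and S3 were both above every congenic rat for 5 of the 7 genes and for 27.5% of probes, and in 4 of those 5 genes S2 was no higher than the highest congenic rat, which with S1 and S3 above held for 22.2% of probes. Set against the congenic rats, S1 and S3 alone had no overlap for 5 of the 7 genes and 59.9% of probes. S2 alone had none for 5 of the 7 genes, above the congenic rats for 1 and below them for 4, and for 56.0% of probes. The SD among the S rats was larger than that among the congenic rats for 7 of 7 genes and 70.8% of probes, reaching 0.63 for Pms2 against at most 0.32 in the congenic rats, for Mpg. The 7 genes share their arrays, so these counts describe 6 rats and are not 7 separate observations.

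Among the genes whose signals followed Mgmt most closely were Ube2j1, a ubiquitin-conjugating enzyme of the endoplasmic reticulum, and Grpel2, a cochaperone of mitochondrial protein import. Their Pearson correlations with Mgmt over the 6 arrays were 0.9965 and 0.9963. Of 14659 named probes, 641 (4.37%) correlated with Mgmt above 0.95, so these are among the closest of many.

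Other genes of the repair pathways were listed by function. Of 56 such genes 46 had a tested probe, and these include the 13 replication factors and 8 genes of homologous recombination described further below. At the brightest probe 0 of the 46 had an unadjusted limma p under 0.05 in either direction, where 13.0% of all probes did. Their median log2 fold change was -0.32, with 36 of the 46 below 0, as were 48.7% of all probes. Of the 36, 1 was well above background on S arrays only. S2 was the lowest S rat for 38 of the 46 (82.6%) and for 40.0% of all probes. By list, these were all 13 replication factors and 6 of 8 genes of homologous recombination. They were also 9 of 10 genes of the later steps of base excision repair, 4 of 7 glycosylases, 4 of 6 mismatch repair genes and 2 of 2 for direct reversal. The strains were apart with S.LEW lower for 1 of the 46 and with S.LEW higher for 2, where 17.7% of all probes had strains apart. Alkbh2, a dioxygenase that strips methyl groups from adenine and cytosine, was an exception to the lower values in S.LEW. Its log2 signal was 10.26, 10.20 and 10.35 in C1, C2 and C3 and 9.89, 9.70 and 10.00 in S1, S2 and S3. All congenic rats were above all S rats for Alkbh2, opposite to Mgmt, with a log2 fold change of 0.41 with an SE of 0.17 (limma adjusted p = 0.389). Alkbh3, a related dioxygenase, had a log2 fold change of -0.09.

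Among the 7 tested glycosylases other than Mpg, which remove oxidized or deaminated bases, the strains did not overlap for Mutyh and Nthl1, in opposite directions. Over all probes the strains did not overlap for 17.7%. The log2 fold change was -0.26 with an SE of 0.17 (limma adjusted p = 0.492) for Mutyh, which removes adenine opposite oxidized guanine. It was 0.25 with an SE of 0.18 (limma adjusted p = 0.534) for Nthl1, which acts on oxidized pyrimidines, and -0.25 for Ogg1, which removes oxidized guanine. In the later steps of base excision repair, 7 of 10 tested genes were below 0, against 48.7% of all probes. The log2 fold change was -0.45 for the flap nuclease Fen1 and -0.41 for Tdp1, which cleans up damaged strand ends. In mismatch repair the log2 fold changes of Msh3, a partner in mismatch recognition, and Pms1 were -0.56 and -0.34. Msh3 read 9.69 in S1 and 9.29 in S3 but 8.46 in S2, inside the congenic range of 8.31 to 8.92, the same arrangement as Pms2.

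A like arrangement was seen in most replication factors and in part of the cell division markers. Of 13 tested replication factors, all among the 46 genes above, 12 were below 0, against 48.7% of all probes, and their median was -0.54. S2 was the lowest S rat for all 13 and for 40.0% of all probes. S1 and S3 were above every congenic rat for 11 and for 27.5% of all probes. Pold4, the small subunit of DNA polymerase delta, had a log2 signal of 9.63 to 9.66 in the congenic rats and 9.65 in S2, but 11.96 in S1 and 11.29 in S3, a log2 fold change of -1.32 with an SE of 0.56 (limma adjusted p = 0.389). Of the clamp loader, Rfc2 had a log2 fold change of -0.75 and Rfc1 of -0.85 at its brightest probe, and another of the 3 Rfc1 probes, at -0.73, was the only one with an unadjusted p under 0.05. Of 8 tested genes of homologous recombination, also among the 46, 7 were below 0, against 48.7% of all probes. Mre11 was at -0.54 and Rad50 at -0.51. Nbn, the 1 gene above 0, was at 0.13 and was named after its values were seen. Of the 7 below 0, 1 was well above background on 0 congenic arrays and on all 3 S arrays. It entered the table through the S rats alone, which favours a value below 0. Among 10 tested cell division markers S1 and S3 were above every congenic rat for 6, against 27.5% of all probes. These were Bub1 and subunits of the replicative helicase, and not the mitotic regulators Cdk1, Ccnb1, Ccna2 and Aurka, all of them named after their values were seen. Of the 10, 1 had an unadjusted limma p under 0.05, where 13.0% of all probes did. It was the helicase subunit Mcm3, at -1.86 with an SE of 0.77 for its brightest probe (limma adjusted p = 0.384). The other Mcm3 probe, at -1.64, was not past that limit (limma unadjusted p = 0.0758).

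T and B cell markers were high and low on the same arrays as the repair genes. To compare lists, the 6-array average of each gene was subtracted from its log2 signal, and the differences were averaged over the genes of a list. The average of the 7 alkylation repair genes was 0.56 in S1 and 0.32 in S3, -0.36 in S2 and -0.28 to -0.03 in the congenic rats. That of the 7 tested T and B cell markers, of 11 listed, was 2.85 in S1 and 2.82 in S3, -1.61 in S2 and -1.46 to -1.29 in the congenic rats. Of these markers 6 of the 7 were well above background on every array. At an unadjusted limma p under 0.05 were 4 of the 7, all lower in S.LEW, against 4.4% of all probes in that direction. Epithelium markers had the opposite direction between strains, with averages of 0.03 to 0.71 in the congenic rats and -0.58 to -0.33 in S. At an unadjusted limma p under 0.05 were 6 of 7, all higher in S.LEW, against 8.58% of all probes in that direction. Smooth muscle markers ran the other way from the repair genes among the S rats, with averages of -1.59 in S1 and -0.44 in S3, 0.70 in S2 and 0.36 to 0.56 in the congenic rats, and 0 of 6 had an unadjusted limma p under 0.05. Of the other markers at an unadjusted limma p under 0.05, 2 of 5 for macrophages were lower and 2 higher in S.LEW. At the same limit 2 of 5 for striated muscle were lower and 3 of 4 for fat were higher. Over all probes 4.4% were lower and 8.58% higher at that limit. Of the 2 for striated muscle, 1 was well above background on 0 congenic arrays and on all 3 S arrays. It entered the table through the S rats alone, which favours a lower value in S.LEW. In sign, 3 of the 5 striated muscle markers were below 0 and 2 above. The part of these markers, and of the array brightness, in the values of the repair genes was not tested.

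**Figure D3:**
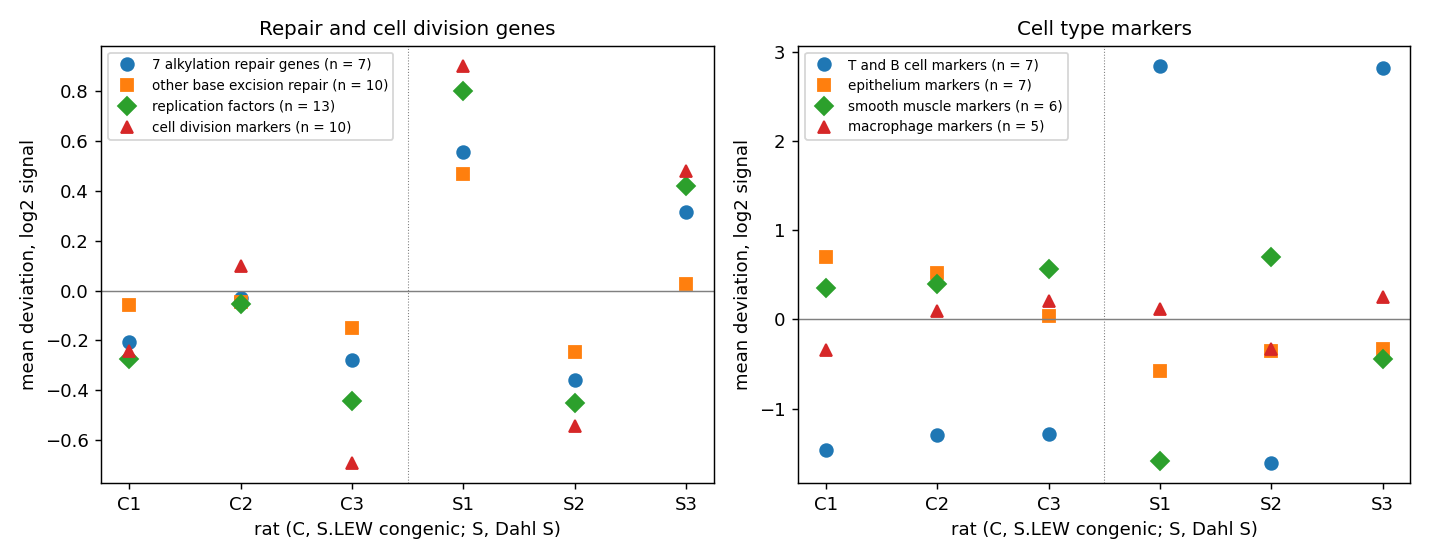
Mean deviation of each gene list from its own average over the 6 arrays, in log2 signal, by rat (left, repair and cell division lists; right, cell type markers, on a wider axis). The 7 alkylation repair genes, the replication factors and the T and B cell markers are high in S1 and S3 and low in S2, whereas smooth muscle markers are low in S1 and S3. The macrophage points average markers that ran in opposite directions.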

How the data were processed

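Total RNA of the colon of 6 rats was labeled with Cy3 and hybridized to Agilent rat arrays, 1 per rat. The deposited scanner files hold a background-corrected intensity per spot from Feature Extraction 11.0.1.1. The authors quantile-normalized the intensities in GeneSpring, keeping the probes that at least 3 of the 6 rats expressed, and their deposited log2 values for 23997 probes were used here, with the detection calls of the scanner files. A probe counted as well above background on an array where at least a fraction of 0.5 of its spots did. On every array the deposited log2 values correlated at 0.9999 or more with intensities quantile-normalized here, and no member value differed by more than 0.0007. No spot was saturated. Precision is limited by there being 3 arrays per strain.

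A single limma 3.58.1 fit of all probes, run in R 4.3.3 through lmFit and eBayes without covariates, compared the strains, and p-values were adjusted by Benjamini-Hochberg across the whole table. The script was tested on simulated data. Log2 fold changes are S.LEW minus S. Permutation tests were exact and two-sided. Nothing in the labels says more of the replicates than that they were different rats. Of 30367 probes, 18005 were named by looking up their accession among the GRCr8 genes of RefSeq. Gene coordinates of the array's older build were not used. Where a gene of another list had several probes, the brightest one stood for it.

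The members and the gene lists were chosen with earlier results of these data known. The genes named beside the members were, in each other list, those with an unadjusted p under 0.05 and otherwise up to 3 with the largest change among probes well above background on all arrays, plus the 3 genes that correlated best with the member of largest SD. Cell type markers were given as lists, and some genes are not reported here. Striated muscle, macrophage and fat markers were read as well. Alternatives were other scalings, background correction, filters, tests, array weights, blocks and leaving out rats. Plots were drawn with matplotlib 3.10.9.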

Additional observations from a re-analysis of the deposited data

How the results depend on the processing

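The counts below are of probes with limma unless another test is named. The 1338 probes called at an unadjusted p under 0.05 and 2-fold became 740 with normexp on the median signal. The median signal was chosen after seeing the data, since the scanner files hold no mean signal, which had been planned. The 1338 became 693 with the methods' t-test, 3649 with array weights and 778 with the scan as a block. They became 669 to 4122 when each rat was left out in turn, the highest without S2 and the lowest without S3. Of the 1338, 58.0% were higher in S.LEW, against 47.7% with scaling to the 75th percentile and 48.5% with normexp. The 3115 probes at an unadjusted p under 0.05 became 11591, 1102 and 1860 with array weights, with the scan as a block and with S2 as the only S rat (also chosen after seeing the data), and 1288 to 9843 over the rats left out. The 0 probes at an adjusted p under 0.05 became 1 with the 75th percentile, 8549 with array weights, and 0 to 5553 over the rats left out, the highest without S2. The array weights rest mainly on S3, with a weight of 4.90 against 0.16 for S2.

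Of the 7 repair genes, the 1 with an unadjusted p under 0.05 became 0 with the methods' t-test, the scan block or S2 as the only S rat, 4 with array weights, and 0 to 4 over the rats left out. At an adjusted p under 0.05 the 0 became 4 with array weights and 0 to 2 over the rats left out, and the 1 with strains apart became 5 with S2 as the only S rat (S2 above the congenic rats for 1 and below for 4, with 56.0% of all probes free of overlap) and 1 to 5 over the rats left out. Mgmt was below 0 under all 17 alternatives, past an unadjusted p of 0.05 in 10 of them, and its log2 fold change was -0.91 without C1, -0.91 without C3, -0.73 without S1 and -0.85 without S3, all no longer past it. Signs turned for Mpg without S2 (-0.049, the lowest of a range up to 0.43 over the rats left out), for Apex1 (0.10), Parp1 (0.19), Polb (0.29) and Pms2 (0.14) with S2 as the only S rat, and for Xrcc1 with the 75th percentile (0.015), without C1 (0.0097), without S1 (0.087, the highest of a range from -0.10 over the rats left out) and with S2 as the only S rat (0.16). The cause was not tested. Among the other repair genes, the 0 at an unadjusted p under 0.05 became 1, Rfc1, when the probes of a gene were averaged.

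The labels do not tie replicate numbers to cages, so cage mates could not be paired. A congenic rat and the S rat of its number departed from their strain averages with correlations of -0.016, -0.13 and -0.061 over all probes. These values cannot show whether rats of the same number shared a cage. With the replicate number as a block, 1538 probes were called, 1 repair gene had an unadjusted p under 0.05, and Mgmt had a log2 fold change of -0.96 with an adjusted p of 0.464 from limma.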
